A study of Mus musculus with 2 samples.

Results

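Oligodendrocyte precursor cells (OPCs) are glial cells that keep dividing in the adult brain, hippocampus included, and give rise to the oligodendrocytes that myelinate axons. They answer to platelet-derived growth factor through the receptor PDGFRA, carry the proteoglycan NG2 on their surface and are specified by basic helix-loop-helix, SOX and NKX transcription factors. As they leave the cell cycle and mature they pass through a committed stage marked by Gpr17 and Bcas1, before myelin genes are switched on. The 10 genes described here, Pdgfra, Cspg4, Olig1, Olig2, Sox10, Sox8, Neu4, Bcas1, Gpr17 and Nkx2-2, were chosen by name for their known use in this lineage. Earlier results of these data were known when the genes were chosen. All 10 were found, each in 1 of the 24319 named entries that compare the 2 libraries.

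The libraries were made from nuclei of the adult mouse dentate gyrus, the part of the hippocampus that forms new granule neurons. One came from wild-type mice and one from Kmt2d +/mut mice, which carry 1 altered copy (Kmt2d+/Bgeo in the series' design) of the histone methyltransferase gene Kmt2d. All mice were 8 weeks old and were given 150 mg/kg of EdU, a thymidine analogue built into DNA in S phase, 16 h before dissection. For each genotype, 500 EdU-labelled nuclei pooled from 3 mice gave 1 RNA-seq library, so no value has a replicate and no test between genotypes was made here. The nuclei of these libraries are called wild-type and mutant nuclei here. Levels are FPKM, the fragments of a gene relative to its transcript length and to the size of the library, which can be compared between genes.

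By an estimate from the FPKM, few fragments per library entered the values. The steps between low values put 1 fragment at 4.60 FPKM per effective kb in wild-type nuclei and 4.63 in mutant nuclei. That gives about 217000 and 216000 fragments, provided that each library was scaled to its own total, which the sources used here do not say. Fragments left out of that total would not be counted, so the estimate need not be the sequencing depth. FPKM was above 0 for 23.8% and 22.4% of all named genes. Kmt2d stood at 34.7 FPKM in wild-type nuclei and 23.5 in mutant nuclei. Which part of the transcript was read is not known, and both genotypes keep an intact copy, so these values do not check the labels. In such pooled samples, fewer cells of a type and less RNA per cell cannot be told apart.

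The OPC genes were read in nearly full number in both libraries. FPKM was above 0 for 9 of the 10 genes in wild-type nuclei, where Olig2 was listed at 0, and for 9 of 10 in mutant nuclei, where Sox8 was listed at 0. Over all named genes, 33.1% were above 0 in at least 1 library and 13.1% in both, against 10 of 10 and 8 of 10 of the OPC genes. The OPC genes were chosen with earlier results of these data known, so this contrast is a description and not a test. The summed level of the 10 genes was 1208 FPKM in wild-type nuclei and 1361 in mutant nuclei, which was 0.273% and 0.349% of each library's FPKM. Bcas1, Neu4, Pdgfra and Olig1 were the 4 most abundant in each library, with levels from 190 to 293 FPKM in wild-type nuclei and from 198 to 338 in mutant nuclei. The next gene in order was Sox8 at 51.6 FPKM in wild-type nuclei and Gpr17 at 131 in mutant nuclei. Without replicates, the order within either library has no spread to be set against.

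**Figure D1:**
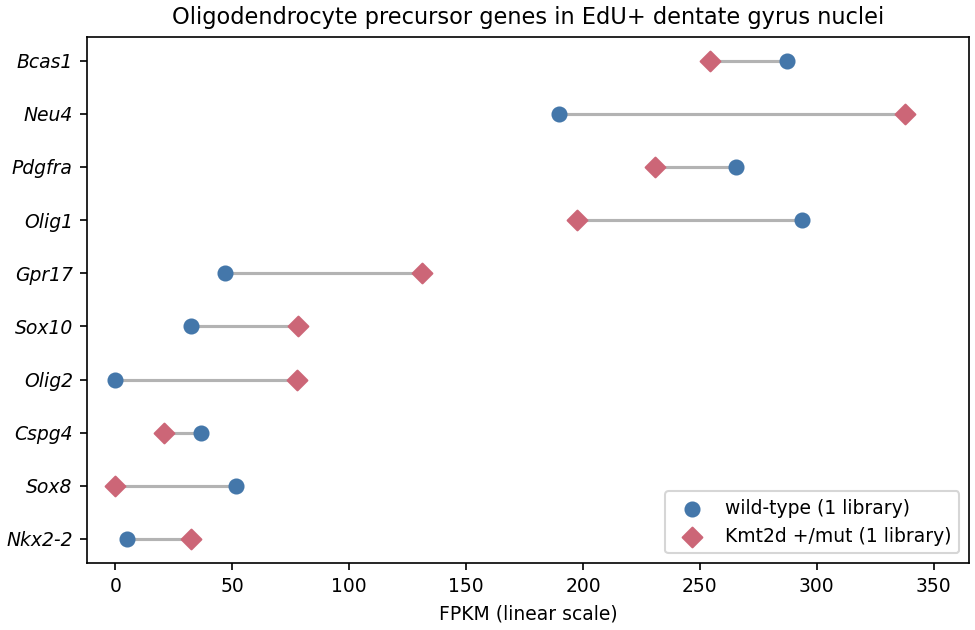
FPKM (linear axis) of the 10 OPC genes in the wild-type library (circles) and the Kmt2d +/mut library (diamonds), 1 library per genotype, ordered by mean level; grey lines join the 2 readings of a gene. Bcas1, Neu4, Pdgfra and Olig1 lie at about 190 FPKM or above in both libraries, while Olig2 and Sox8 are each listed at 0 in 1 library.

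Of the cell-surface genes, the 2 classical markers of the OPC stage were Pdgfra, with close readings, and Cspg4, with a lower reading in mutant nuclei. Pdgfra, the receptor that drives OPC division (mm10, chromosome 5, 75152292 to 75198215, plus strand), stood at 266 FPKM in wild-type nuclei and 231 in mutant nuclei. The ratio of Kmt2d +/mut to wild-type was 0.870, and its exact binomial 95% interval from the estimated fragments (384 and 332) ran from 0.749 to 1.01. These intervals cover counting error only. With 22 cycles of cDNA amplification, 20 of enrichment and no molecular identifiers described, PCR copies count as fragments, so the intervals are too narrow. Cspg4, which encodes the NG2 proteoglycan (chromosome 9, 56865033 to 56899870, plus strand), had readings of 36.8 FPKM in wild-type nuclei and 21.0 in mutant nuclei, a ratio of 0.570 with an interval from 0.371 to 0.880. Both genes were thus within 2-fold, and the reading of Cspg4 rests on an estimated 63.5 and 35.9 fragments of a long transcript (8121 bp).

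Gpr17, a G protein-coupled receptor of committed precursors that holds back their maturation (chromosome 18, 31942997 to 31949636, minus strand), had the higher reading in mutant nuclei. It stood at 47.0 FPKM in wild-type nuclei and 131 in mutant nuclei, a ratio of 2.79 with an interval from 2.02 to 3.94. Gpr17 lies inside Lims2, a gene on the opposite strand that encodes an adaptor of focal adhesions, and the authors' deposited table gives both the same locus. Lims2 was read at 12.2 FPKM in wild-type nuclei and 52.4 in mutant nuclei. No strand marking is described for these libraries, so reads of the pair cannot be told apart where they overlap, and the part of Lims2 in the Gpr17 reading was not tested.

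Of the 5 transcription factor genes of the lineage, Olig2 and Sox8 were each listed at 0 in 1 library. OLIG1 and OLIG2 are basic helix-loop-helix factors, and OLIG2 is required to make oligodendrocytes. Their genes lie 41.1 kb apart on chromosome 16, Olig2 at 91225457 to 91228677 and Olig1 at 91269772 to 91271933, both on the plus strand. Olig1 was read at 293 FPKM in wild-type nuclei and 198 in mutant nuclei, a ratio of 0.673 with an interval from 0.510 to 0.901. Olig2 was listed at 0 in wild-type nuclei and stood at 77.8 FPKM, an estimated 39.5 fragments, in mutant nuclei. The library in which Olig2 was listed at 0 therefore had the higher reading of Olig1.

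SOX10 and SOX8 belong to the same SoxE group of factors. SOX10 acts in the lineage from precursor to myelinating cell, where SOX8 has overlapping functions. Sox10 (chromosome 15, 79154908 to 79165240, minus strand) stood at 32.3 FPKM in wild-type nuclei and 78.3 in mutant nuclei, a ratio of 2.42 with an interval from 1.36 to 4.43. Sox8 (chromosome 17, 25565892 to 25570686, minus strand) stood at 51.6 FPKM, an estimated 31.6 fragments, in wild-type nuclei and was listed at 0 in mutant nuclei. The antisense gene 2810468N07Rik overlaps the first 329 bp of Sox8 and had the same pattern, at 221 FPKM in wild-type nuclei and a listed 0 in mutant nuclei, with a call of lower in the authors' deposited table. No strand marking is described, so reads in this overlap cannot be told apart. The part of 2810468N07Rik in the Sox8 reading was not tested. Nkx2-2, a homeodomain factor of the lineage (chromosome 2, 147177546 to 147194243, minus strand), had readings of 4.89 FPKM in wild-type nuclei and 32.2 in mutant nuclei. The wild-type value comes to an estimated 2.06 fragments and the other to 13.5, and the ratio of 6.59 had an interval from 1.48 to 59.7. Its antisense partner Nkx2-2os shares its locus in the authors' deposited table and stood at 1.09 FPKM in wild-type nuclei and a listed 0 in mutant nuclei.

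Olig2 and Sox8 were the only OPC genes with a call in the authors' deposited table, one in each direction, and the 250 bases before their RefSeq starts are shown to set these opposite cases side by side. Of the 10 genes, 6 had a promoter in the RefSeq table used (GRCm38.p6, the same assembly as mm10). Capitals mark CANNTG, the E-box bound by basic helix-loop-helix factors, and ACAAT, a core bound by SOX factors, on either strand (ACAAT reads ATTGT on the other). The Olig2 window is chr16:91225300-91225549 on the plus strand, and the Sox8 window is chr17:25570687-25570936 on the minus strand, inside 2810468N07Rik. The Olig2 start given above, 91225457, comes from another annotation and lies inside the Olig2 window, so part of that window is within Olig2 as placed there.
Olig2: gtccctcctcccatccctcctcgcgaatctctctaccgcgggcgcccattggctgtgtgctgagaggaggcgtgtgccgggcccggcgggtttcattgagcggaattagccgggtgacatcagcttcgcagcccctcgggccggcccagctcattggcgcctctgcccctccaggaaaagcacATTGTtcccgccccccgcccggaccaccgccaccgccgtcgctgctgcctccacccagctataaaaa
Sox8: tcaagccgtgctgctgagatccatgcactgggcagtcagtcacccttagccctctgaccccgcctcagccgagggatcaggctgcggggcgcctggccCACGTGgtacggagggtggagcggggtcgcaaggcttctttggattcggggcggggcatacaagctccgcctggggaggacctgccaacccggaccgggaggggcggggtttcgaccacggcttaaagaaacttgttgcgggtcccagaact

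Both windows were rich in G and C, at 66.8% for Olig2 and 65.6% for Sox8, with 22 and 18 CG pairs against a median of 6 over 32851 promoters. The Olig2 window held 1 ACAAT and no CANNTG, and the Sox8 window 1 CANNTG and no ACAAT. Of all promoters in the table, 66.2% held a CANNTG and 27.7% an ACAAT in the same 250 bases. The other 4 windows, of Pdgfra, Cspg4, Neu4 and Nkx2-2, held between 4 and 12 CG pairs. By the gene coordinates given here, the Nkx2-2 window lies wholly inside Nkx2-2. Those of Cspg4 and Neu4 overlap the starts of their genes. A match is a description of the letters and not a bound site.

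The authors' deposited table tested 8 of the 10 genes and left Cspg4 and Nkx2-2 untested. Olig2 has a call of higher in mutant nuclei in the authors' deposited table, with a q-value of 0.0290, and Sox8 a call of lower, also at 0.0290. The q-values of the other 6 tested genes in the authors' deposited table ran from 0.611 for Gpr17 to 0.928 for Bcas1. Over all tested genes the authors' deposited table calls 27%, with 12.8% higher and 14.3% lower, so 2 of 8 is near the background. It calls 61.7% of the tested genes that were listed at 0 in 1 library and 0 of 1826 that were above 0 in both, with 1 library per genotype behind each test. A reading of 0 opposite a level like these was common: of 1425 genes at or above the level of Olig2 in mutant nuclei, 31.7% were listed at 0 in wild-type nuclei, and of 1984 genes at or above the level of Sox8 in wild-type nuclei, 36.8% were listed at 0 in mutant nuclei. In the lists described below, calls were given to 2 of 20 tested other OPC markers, 1 of 8 regulators and 3 of 6 PDGF signalling genes. They were also given to 1 of 7 tested genes of committed precursors and 3 of 11 astrocyte markers.

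Neu4 and Bcas1 were among the most abundant of the 10. NEU4 is a sialidase, an enzyme that removes sialic acid from glycans (chromosome 1, 94020451 to 94028334, plus strand). Neu4 stood at 190 FPKM in wild-type nuclei and 338 in mutant nuclei, a ratio of 1.78 with an interval from 1.47 to 2.15. Bcas1 marks newly forming oligodendrocytes (chromosome 2, 170346991 to 170427845, minus strand) and had close readings of 287 FPKM in wild-type nuclei and 254 in mutant nuclei, a ratio of 0.886 with an interval from 0.706 to 1.11. Its antisense partner Bcas1os2 shares its locus and stood at 41.9 FPKM in wild-type nuclei and 28.3 in mutant nuclei. By the 2 log2(FPKM + 1) values, the genes nearest to Bcas1 were Unc50, Snrpe and Pdgfra, at distances of 0.10, 0.17 and 0.18. With 2 libraries this likeness is a match of 2 levels only.

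**Figure D2:**
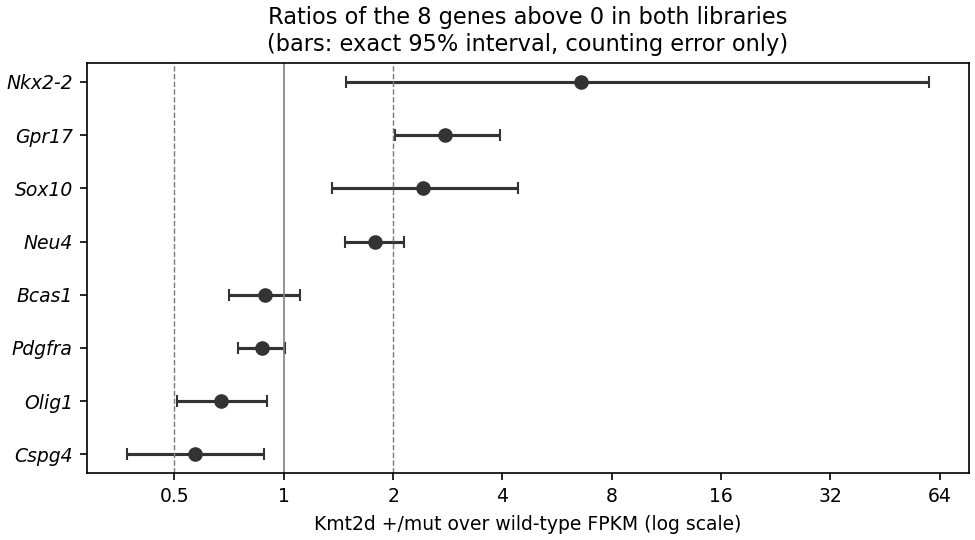
Ratio of Kmt2d +/mut to wild-type FPKM (log axis) for the 8 OPC genes above 0 in both libraries; points are the ratios, bars the exact binomial 95% intervals from estimated fragments, which cover counting error only, and dashed lines mark 2-fold in either direction. Gpr17, Sox10 and Nkx2-2 lie above 2, and the other 5 genes lie between 0.570 and 1.78.

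Counted by size, with log2((Kmt2d +/mut FPKM + 1)/(wild-type FPKM + 1)), 4 of the 10 genes were at least 2-fold higher in mutant nuclei (Olig2, Nkx2-2, Gpr17 and Sox10), 1 was at least 2-fold lower (Sox8) and 5 were within 2-fold. All 10 genes met a minimum FPKM of 1 in either library. Over the 7903 genes that met it, 40.5% were 2-fold higher or more, 44.3% 2-fold lower or more, and 15.3% lay within 2-fold. With a minimum of 30 FPKM, which all 10 genes also met, these shares were 39.2%, 42.1% and 18.8% of 4316 genes. Among genes above 0 in both libraries, 3 of the 8 OPC genes were at least 2-fold higher, none was 2-fold lower and 5 were within 2-fold, against 31.5%, 30.6% and 37.9% of 3182 genes. The median log2 ratio of the 10 genes was 0.33, and that of the 7903 genes was -0.23. Over genes above 0 in both libraries these medians were 0.33 and 0.02. The share of OPC genes that were higher was therefore close to the background.

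**Figure D3:**
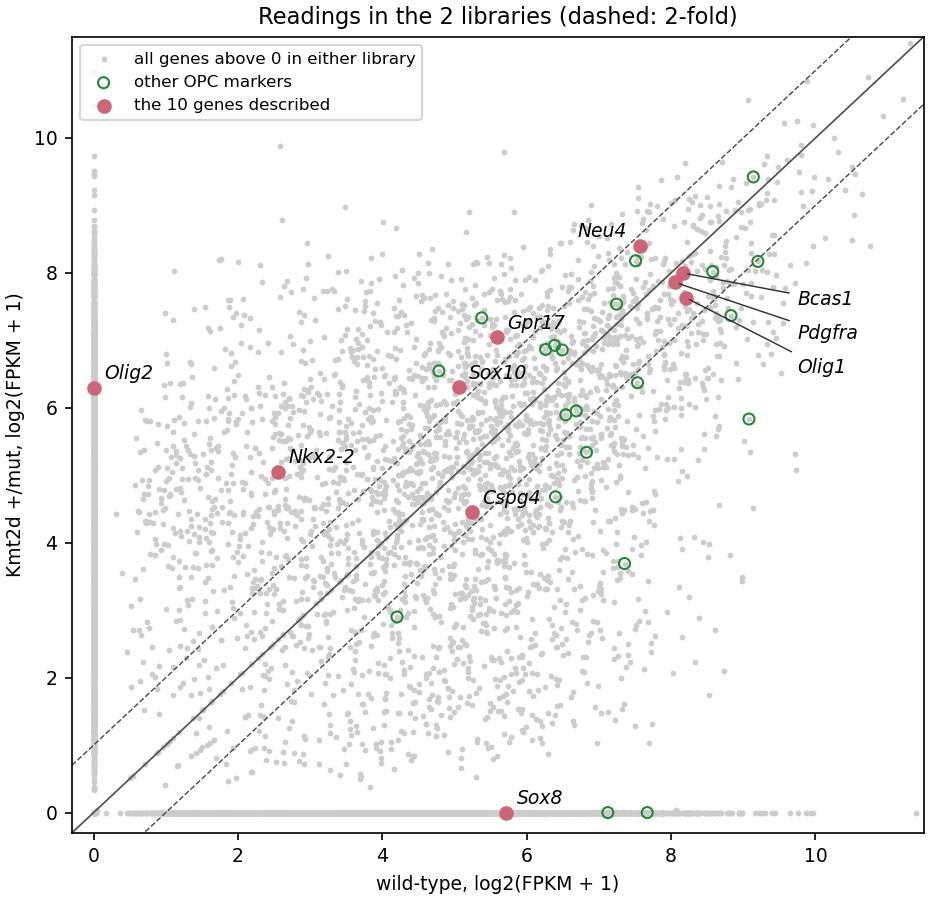
Level in Kmt2d +/mut against level in wild-type, both as log2(FPKM + 1), for every gene above 0 in at least 1 library (grey), the 10 OPC genes (filled, named) and 22 other OPC markers (open circles; the 1 listed at 0 in both libraries is not drawn); the solid line marks equal readings and the dashed lines 2-fold. Of the 10 genes 5 lie between the dashed lines, and Olig2 and Sox8 lie on the axes.

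A wider list of 22 other OPC markers was read about as fully as the 10 genes. Of these markers, 21 were above 0 in wild-type nuclei and 19 in mutant nuclei. The most abundant were Bcan, which encodes the matrix proteoglycan brevican, at 563 FPKM in wild-type nuclei and 685 in mutant nuclei, and the receptor phosphatase gene Ptprz1 at 588 and 287. Tmem100 stood at 454 and 164, and the proteoglycan gene Cspg5 at 381 and 259. Cacng4, a subunit of AMPA receptor complexes, and Xylt1, which starts the sugar chains of proteoglycans, stood at 203 and 138 FPKM in wild-type nuclei and at a listed 0 in mutant nuclei, each with a call of lower in the authors' deposited table. Of the 21 markers over the minimum, 2 were 2-fold higher or more, 10 were 2-fold lower or more and 9 lay within 2-fold, with a median log2 ratio of -0.73. The 10 lower markers (47.6%) were near the 44.3% of all genes, while the 2 higher ones (9.52%) were fewer than the 40.5% of all genes. Over the 19 markers above 0 in both libraries the median was -0.64, and the medians of the 10 genes and of these markers were of opposite sign. The part of cells other than OPCs in the readings of these markers was not tested.

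Other genes of the lineage's control were read less fully. Of 28 regulators of oligodendrocyte development in the table, 14 were above 0 in wild-type nuclei and 18 in mutant nuclei, with 9 at least 2-fold higher, 7 lower and 5 within 2-fold. Of the 21 over the minimum these were 42.9%, 33.3% and 23.8%, against 40.5%, 44.3% and 15.3% of all genes. Tcf4, Tcf12 and Tcf3 encode E proteins, partners of OLIG factors. Tcf4 stood at 122 FPKM in wild-type nuclei and 137 in mutant nuclei, and Tcf12 at a listed 0 and 105, with a call of higher in the authors' deposited table. Tcf3 went the other way, at 34.9 FPKM in wild-type nuclei and a listed 0 in mutant nuclei, and was left untested there. Hes5, a Notch effector, stood at 177 and 42.8, and the SoxC gene Sox11 at 44.3 and 52.1. Their median log2 ratio was 0.23, and it was -0.53 over the 11 regulators above 0 in both libraries.

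Of 29 genes of PDGF signalling, the ligand genes Pdgfa, Pdgfc and Pdgfd were listed at 0 in both libraries, and Pdgfb had a listed 0 in wild-type nuclei and 6.68 FPKM in mutant nuclei. Downstream, the kinase gene Map2k1 was listed at 0 in wild-type nuclei and stood at 239 FPKM in mutant nuclei, with a call of higher in the authors' deposited table. The kinase gene Pik3ca has a call of lower in the authors' deposited table, from 60.5 FPKM to a listed 0. The phospholipase gene Plcg1 stood at 110 FPKM in wild-type nuclei and 3.24 in mutant nuclei. In that list 12 genes were at least 2-fold higher, 6 lower and 3 within 2-fold, with a median log2 ratio of 2.94, or 0.85 over the 8 genes above 0 in both libraries. Of the 21 over the minimum these were 57.1%, 28.6% and 14.3%, against 40.5%, 44.3% and 15.3% of all genes. In wild-type nuclei alone 9 genes were listed at 0, and 4 in mutant nuclei alone. The median of 2.94 is the ratio of Pdgfb, listed at 0 in wild-type nuclei, so it depends on the pseudocount.

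Genes of the later stages ran in both directions. Of 20 genes of committed precursors in the table, 6 were at least 2-fold higher, 6 lower and 4 within 2-fold, with a median log2 ratio of 0.37, or 0.11 over the 11 genes above 0 in both libraries. Of the 16 over the minimum these were 37.5%, 37.5% and 25%, against 40.5%, 44.3% and 15.3% of all genes. Bmp4 stood at 12.6 FPKM in wild-type nuclei and 192 in mutant nuclei, the deacetylase gene Sirt2 at 289 and 82.0, and the proteoglycan gene Vcan, which is also an OPC marker, at 184 and 81.8. The membrane protein gene Mpzl1 stood at 317 and a listed 0, with a call of lower in the authors' deposited table. Of 26 myelin and mature oligodendrocyte genes, 10 were above 0 in wild-type nuclei and 14 in mutant nuclei. Mbp, which encodes myelin basic protein, stood at 149 FPKM in wild-type nuclei and 162 in mutant nuclei, Ptgds at 759 and 1196 and Qdpr at 345 and 277. Trf, Cldn11 and Gsn were listed at 0 in wild-type nuclei and stood at 144, 110 and 85.5 FPKM in mutant nuclei, each with a call of higher in the authors' deposited table. Of the 12 myelin genes tested there, these 3 have a call, against 27% of all tested genes. The summed level of these 26 genes was 2043 FPKM in wild-type nuclei and 3199 in mutant nuclei. Of the 15 myelin genes over the minimum, 6 (40%) were at least 2-fold higher, 3 (20%) lower and 6 (40%) within 2-fold. The 3 lower genes were Cryab, Mal and Cnp. They stood at 243, 58.1 and 6.35 FPKM in wild-type nuclei and at 61.6, 1.90 and a listed 0 in mutant nuclei. The median log2 ratio of the 15 myelin genes was 0.65. Over the 9 of them above 0 in both libraries it was 0.21, and 1 was higher, 2 were lower and 6 lay within 2-fold. The part of myelinating cells in the readings of the OPC genes was not tested.

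Pdgfra is also used by fibroblasts and Cspg4 by pericytes. Of 11 markers in the pericyte and fibroblast list alone, 10 were listed at 0 in both libraries, among them Rgs5, Kcnj8, Abcc9, Col1a1 and Dcn, and Tagln stood at 103 FPKM in mutant nuclei. Pdgfrb, the defining pericyte receptor gene, was also listed at 0 in both. Ptgds, which this list shares with the myelin list, stood at 759 FPKM in wild-type nuclei and 1196 in mutant nuclei. The part of fibroblasts and pericytes in the readings of Pdgfra and Cspg4 was not tested. All 13 endothelial markers were listed at 0 in both libraries. Of 16 astrocyte markers, 10 were above 0 in wild-type nuclei and 11 in mutant nuclei, with sums of 1091 and 1271 FPKM. The most abundant, Clu, Aldoc, Slc1a3 and Slc1a2, stood at 304, 210, 134 and 105 FPKM in wild-type nuclei and at 302, 294, 186 and 146 in mutant nuclei, and stem cells of the dentate gyrus express several of these genes. Of the astrocyte genes, Mlc1 and Gja1 have a call of higher in the authors' deposited table, from a listed 0 to 179 and 53.6 FPKM, and Glul a call of lower, from 133 to a listed 0. The defining astrocyte gene Gfap stood at 54.6 FPKM in wild-type nuclei and a listed 0 in mutant nuclei, and Fgfr3 at 67.2 and 18.2. Of the 13 astrocyte markers over the minimum, 3 (23.1%) were at least 2-fold higher, 6 (46.2%) lower and 4 (30.8%) within 2-fold. Over all genes these shares were 40.5%, 44.3% and 15.3%. The median log2 ratio of the 13 markers was -0.01. Over the 8 above 0 in both libraries, 0 were higher, 4 lower and 4 within 2-fold, with a median of -0.81, so the sum and the median of the list differ in direction.

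Markers of microglia and neurons were read in part. Of 16 microglial markers, 6 were above 0 in wild-type nuclei and 5 in mutant nuclei, with sums of 447 and 699 FPKM, and Cx3cr1 and Tmem119 were listed at 0 in both. Ctss stood at 372 and 238, Trem2 at 10.2 and 181, Csf1r at 19.6 and 85.9 and C1qa at a listed 0 and 125. P2ry12, a defining microglial receptor gene, stood at 40.2 FPKM in wild-type nuclei and a listed 0 in mutant nuclei. Of the 7 microglial markers over the minimum, 4 (57.1%) were at least 2-fold higher, 2 (28.6%) lower and 1 (14.3%) within 2-fold, with a median log2 ratio of 2.07. Over all genes these shares were 40.5%, 44.3% and 15.3%. Of 16 neuronal markers, 8 were above 0 in each library, with sums of 1201 and 1146 FPKM. Snap25 stood at 685 in wild-type nuclei and 539 in mutant nuclei, Camk2a at 68.3 and 238 and Map2 at 124 and 159. In the authors' deposited table Calb1 has a call of lower, from 178 FPKM to a listed 0, and Dcx a call of higher, from a listed 0 to 51.1. Of the 7 neuronal markers tested there, these 2 have a call, against 27% of all tested genes. Neurod1 stood at 92.5 FPKM in wild-type nuclei and 41.9 in mutant nuclei, and Rbfox3 at 12.1 and 31.0. Prox1 was listed at 0 in both libraries. Of the 10 neuronal markers over the minimum, 4 (40%) were at least 2-fold higher, 3 (30%) lower and 3 (30%) within 2-fold, with a median log2 ratio of 0.63. The part of these cell types in the readings of the OPC genes was not tested.

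**Figure D4:**
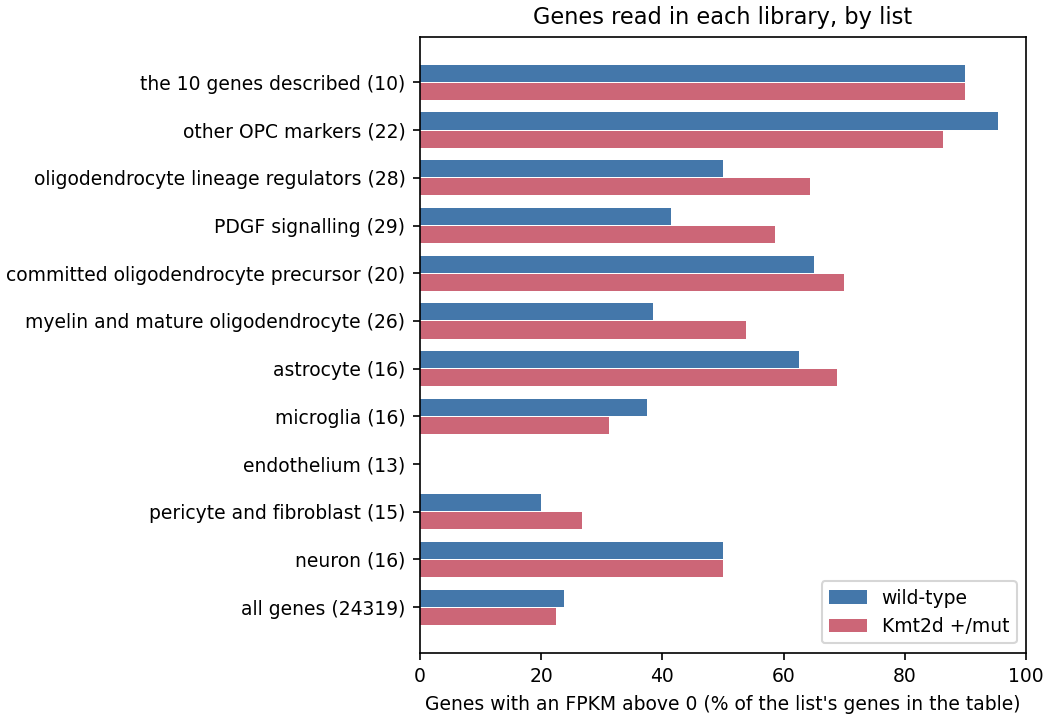
Share of each list's genes with an FPKM above 0 (x axis, % of the list's genes in the table, number in brackets) in the wild-type and Kmt2d +/mut libraries, with all named genes at the bottom. The 10 OPC genes and the 22 other OPC markers lie at 86.4% or above in both libraries, against 23.8% and 22.4% of all genes; endothelial markers lie at 0.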

How the data were processed

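Nuclear RNA was sequenced in 1 pooled library per genotype by a modified Smart-seq2 protocol, per the labels' protocols. The submitters' processing notes name HISAT2, Cuffnorm, Cuffdiff and the build mm10. No source used here gives versions, annotation, settings or the scaling between libraries. The FPKM per gene was used as the authors deposited it, as were the q-value and p-value of their test. The table holds all pairs of 6 libraries, and the 4 that matched no sample were not used. Of 24346 entries of the pair, 27 were left out because their name had become a date. Coordinates and transcript lengths came from GENCODE M21, on the same build.

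From the FPKM, log2 ratios of Kmt2d +/mut over wild-type were computed with a pseudocount of 1 for all genes that reached an FPKM of 1 in either library. This scale understates the differences of low genes. A gene at 0 is described as listed at 0, since a 0 can be a failed estimate, and is given no ratio of FPKM. Through the pseudocount it still enters the counts of 2-fold differences and the medians, except those over genes above 0 in both libraries. To estimate fragments, 180 bp were taken off the length and a step between 3.5 and 6 FPKM was fitted to low values of genes with 1 annotated transcript longer than 800 bp. Of such values, 75.7% of 107 (wild-type) and 75.0% of 88 (Kmt2d +/mut) lay within 0.1 of a whole number. The longest RefSeq-matched transcript was used for each OPC gene, so the fragments of genes with several isoforms are approximate. Counting and the step fit were tested on simulated data. Python 3.11.15, numpy 2.4.6, pandas 2.3.3, scipy 1.17.1 and matplotlib 3.10.9 were used.

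All 10 genes are named, and from each of 10 other lists the 4 with the highest mean FPKM and any gene with a call in the authors' deposited table. Some genes met this rule but are not reported here. A few others are named for their known role or after their values were seen. The genes and lists were chosen with earlier results of these data known. Alternatives were the pseudocount, the minimum, the fold, a rescaling and genes above 0 in both libraries.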

Additional observations from a re-analysis of the deposited data

How the results depend on the processing

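With 1 library per genotype, no spread between replicates was measured and no library could be left out. No paired analysis was possible because each genotype had only 1 library. At a 3-fold threshold 2 of the 10 genes were higher in Kmt2d +/mut in place of 4, and over genes above 0 in both libraries 0 were lower in place of 1. The median log2 ratio of the 10 genes went from 0.33 to 0.32 with a pseudocount of 5 and to 0.51 when FPKM was rescaled to the same sum in both libraries. That rescaling raises every ratio by 0.18 on the log2 scale before the pseudocount and moves the median of all genes from -0.23 to -0.05. Under it the log2 ratio of Bcas1 turned from -0.17 to 0.01 (0.0064), and that of Pdgfra went from -0.20 to -0.02. After rescaling 5 genes, Neu4 now included, were at least 2-fold higher. Of the other settings for these counts and the median, 22 stayed within 1.5 times the reported count or 0.005 of the median, among them a minimum of 30 FPKM, chosen after the values were seen. The log2 ratios of Olig2 and Sox8, each listed at 0 in 1 library, are set by the pseudocount, ranging from 4.05 to 9.60 and from -9.01 to -3.50.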
